A study of Mus musculus with 8 samples.

Results

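The probes described here were named on the array only by a stretch of a mouse chromosome and a strand, such as chr9:78107225-78118850 (forward strand), in place of a gene. They belong to a class of stretches laid out on the array design as transcribed DNA outside annotated genes, with positions on the mm9 build of the mouse genome. The array carried 16181 such probes among 55681 experimental probes, in 3540 ranges. Members were the probes with a signal well above background, by the scanner software's own flag, on at least 4 of 8 arrays in the tumor or the control channel. This rule kept 4900 of the 16181 probes (30.3%), in 2032 of the 3540 ranges, against 24390 of 39500 other probes (61.7%). Gene positions on mm9 were not used here, so the intergenic label was not checked against genes and no neighbouring gene is given.

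Long intergenic noncoding RNAs are transcripts from DNA between protein-coding genes, usually spliced, often kept in the nucleus, and made at lower levels and in fewer tissues than most messenger RNAs. Some act where they are made, on the chromatin of nearby genes, and others scaffold proteins or host small RNAs such as microRNAs and small nucleolar RNAs. A stretch named as intergenic on one genome build can also be an unannotated end or exon of a gene, so a probe for it can follow a known transcript.

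The RNA came from liver tumors (hepatocellular carcinoma, HCC) of male miR-122 KO mice, whose hepatocytes lack their most abundant microRNA, and from livers of age-matched male mice with the miR-122 floxed allele. The genetic background of both was mixed, from C57BL/6J and 129S/Svj. On each of 8 arrays a tumor was labelled with the red dye Cy5 and a control liver with the green dye Cy3. The dyes were never swapped, so a dye effect of a probe and a tumor effect cannot be told apart. The study counts 8 biological replicates, and whether the controls were 8 animals or a shared RNA is not stated. The age, the stage of the tumors and the Cre line are not given in the sources used here. A tumor and a whole liver also differ in their mix of cells, and in such samples fewer cells of a type and less RNA per cell cannot be told apart.

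The share of region probes well above background ran from 15.2% to 28.9% over the 8 tumors and from 21.5% to 34.9% over the 8 controls, with tumor 8 the lowest. The hepatocyte markers checked (5 of 5) were above background on all arrays in both channels, and 2 of them were called lower in tumor. Of other marker lists, 4 of 4 Kupffer cell genes were called lower, 3 of 4 stellate and matrix genes higher and 3 of 3 measured fetal genes higher. Other lists were mixed, with 1 of 3 endothelial genes lower, 1 of 4 bile duct genes higher and 1 of 2 tested pancreas acinar genes higher. Their part in the region results was not tested. Of 8 skeletal muscle genes 1 was tested and 0 were above background on all arrays, but their summed level was 15.99 (log2) in the control of array 8, against 9.1 to 9.76 in the other controls and 9.09 to 12.04 in the tumors. The control levels of arrays 1 and 2 differed with an SD of 0.219 over 3088 region probes, below the 0.257 to 0.399 of the other pairs. Tumor 8 had the lowest correlation of its ratios with the mean of the other tumors, 0.537, against 0.641 to 0.839.

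The probe sequences and the mm9 sequence of the ranges were not used here. Some called ranges moved with a known gene across the arrays, and the promoters of those genes are shown to place them. The sequences are from RefSeq on GRCm38.p6, a later build whose positions cannot be compared with the mm9 range names, and run from 250 bases before to 50 bases after the start. The first pair, Gsta1 at chr9:78230419-78230718 and Gm10639 at chr9:78289678-78289977, both forward, belongs to a group of glutathione S-transferase genes on chromosome 9 whose copies are so alike that probes may not tell them apart. Over 285 aligned bases 6 differ (97.9% identical), and 2 bases of Gsta1 have no partner. Capitals mark these differences.
Gsta1: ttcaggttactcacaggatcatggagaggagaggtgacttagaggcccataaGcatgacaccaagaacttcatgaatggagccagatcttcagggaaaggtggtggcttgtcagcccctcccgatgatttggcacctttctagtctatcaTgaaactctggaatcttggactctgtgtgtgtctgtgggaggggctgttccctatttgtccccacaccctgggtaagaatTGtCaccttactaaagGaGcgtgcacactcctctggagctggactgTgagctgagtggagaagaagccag
Gm10639: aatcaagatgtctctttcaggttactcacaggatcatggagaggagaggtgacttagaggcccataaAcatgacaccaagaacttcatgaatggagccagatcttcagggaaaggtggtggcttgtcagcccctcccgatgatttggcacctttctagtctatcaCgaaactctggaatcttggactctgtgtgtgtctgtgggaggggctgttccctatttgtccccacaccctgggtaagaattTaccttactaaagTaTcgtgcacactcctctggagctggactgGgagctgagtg
The promoter of the noncoding RNA gene Meg3, at chr12:109540746-109541045 forward, is shown because called probes of a chromosome 12 stretch had a profile like that of its RNA. Capitals mark TGACGTCA, the palindromic cyclic AMP response element, found in 1 of 2 Meg3 promoters of the table and, by a search that reads both strands at once, in 588 of 32851 promoters (1.79%). The match is a description of these letters.
Meg3: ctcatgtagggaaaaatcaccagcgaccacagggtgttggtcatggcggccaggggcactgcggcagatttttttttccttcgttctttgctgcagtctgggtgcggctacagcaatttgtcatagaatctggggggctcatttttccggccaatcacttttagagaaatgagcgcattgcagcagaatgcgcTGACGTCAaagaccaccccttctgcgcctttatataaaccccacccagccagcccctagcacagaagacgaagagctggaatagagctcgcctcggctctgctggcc

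Few region probes differed strongly between tumor and control. Of the 4900 tested, 79 were called higher in tumor (1.61%) and 95 lower (1.94%), where a call needs an adjusted p under 0.05 from limma over all 29290 tested probes of the array and at least a 2-fold difference. Over all tested probes 6.63% were called higher and 4.66% lower, 11.3% in all. In all 3.55% of the region probes were called, and of the other tested probes 12.8%, with 7.64% higher and 5.21% lower. A further 1673 region probes passed the adjusted p and stayed below the fold. Ratios below are log2 of tumor over control, given as the mean ± SD of 8 arrays.

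Most called probes had one direction in every tumor. Of the 174 called probes, 149 had the same sign on all arrays measured. The rule for a call itself favours one sign, so this count is a description of the called probes. Without regard to calls, all tumor levels lay above all control levels for 134 of the 4900 region probes (2.73%) and below them for 248 (5.06%), against 7.02% and 7.26% of all tested probes. Of the called probes, 119 had no overlap between the groups, 44 higher and 75 lower. With the scanner software's processed signals in place of background-corrected medians, 318 region probes were called higher and 704 lower. Of these calls 31.1% were higher, against 45.4% in the values given here. The median ratio of all tested probes was then -0.11. The share of all tested probes called with those signals was not counted, so this lean cannot be assigned to region probes.

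Detection leaned to the control channel on most arrays, for region probes and for the other probes of the array. The gap was widest on array 8, with 15.2% of region probes above background in tumor and 30.2% in control. For other probes these shares were 48.0% and 60.2%. On arrays 4 and 5 the tumor share was the higher one for both kinds, such as 28.9% against 28.1% of region probes on array 4. Both channels passed the detection rule for 3575 region probes, of which 68 were called higher and 81 lower (4.17%, against 12.3% of all probes detected this way, 7.15% higher and 5.12% lower). A further 1092 passed only in the control channel and 233 only in the tumor channel. The last 2 sets were chosen by one group being brighter, and 14 of the former and 11 of the latter were called, in that direction only. Just inside the rule, 403 probes above background on exactly 4 arrays had a median ratio of -0.03 (from -0.49 to 0.66). Just outside it, 430 probes at exactly 3 arrays had a median of -0.03 (from -0.36 to 0.51).

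**Figure D1:**
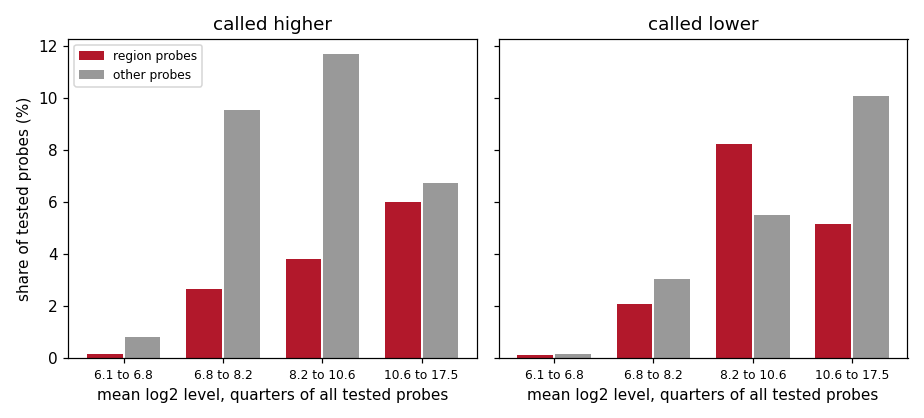
Share of tested probes called higher (left) and lower (right), in percent on the vertical axis, in 4 classes of mean signal level, cut at the quartiles of all tested probes (horizontal axis). The bars of the region probes lie below those of the other probes except for calls lower at levels from 8.19 to 10.56, where 8.26% of region probes and 5.51% of others were called.

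Region probes were dim, with a median level of 6.74 (log2) against 8.7 for other tested probes, and 2629 of the 4900 lay in the dimmest of 4 classes cut at the quartiles of all tested probes. There 0.266% of region probes and 1.0% of others were called. From 6.8 to 8.19 the shares were 4.74% and 12.6%, and from 10.56 up, 11.2% and 16.8%. From 8.19 to 10.56 they were 12.1% and 17.2%, and the directions differed. There 8.26% of region probes were lower and 3.8% higher, while 5.51% of other probes were lower and 11.7% higher. This contrast in direction was not tested.

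**Figure D2:**
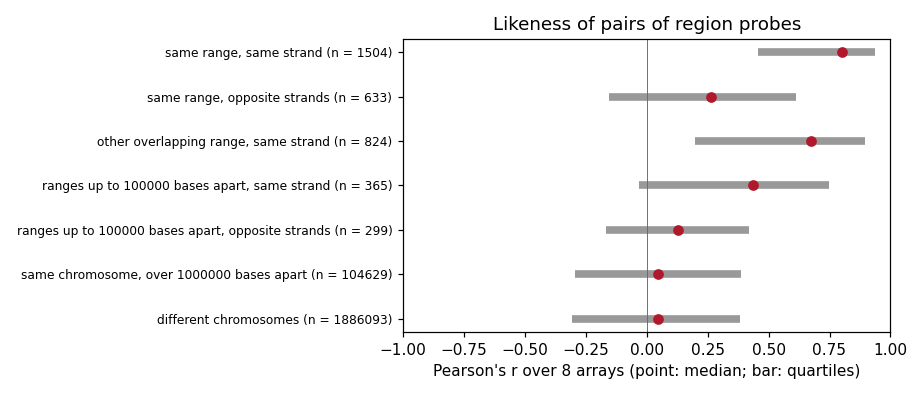
Correlation (Pearson r over 8 ratios, horizontal axis) of pairs of region probes by how the pair lies on the genome (vertical axis), as the median with the lower and upper quartile. Pairs of the same range and strand have a median of 0.802, and pairs on opposite strands of a range 0.265.

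Probes of one range and strand followed each other across the 8 tumors, and probes of the opposite strands much less. Among 1999 probes above background in both channels of every array, 1504 pairs of the same range and strand had a median r of 0.802. The 633 pairs on opposite strands of a range had a median r of 0.265. Overlapping ranges on the same strand gave 0.675 over 824 pairs, and ranges up to 100000 bases apart gave 0.434 on the same strand and 0.128 on opposite strands. Probes on different chromosomes gave 0.0443. These are descriptions: pairs share arrays and probes, and some probes of overlapping ranges may measure the same RNA.

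Few ranges were called on both strands. Since 3.55% of tested region probes were called in all, such a count cannot show whether calls followed the strand. Of 445 ranges with tested probes on both strands, 43 were called on 1 strand, 2 on both strands the same way, 1 on both strands in opposite directions and 399 on neither. Over these ranges the mean ratios of the strands correlated with an r of 0.189. In the range called both ways, chr7:111526943-111545093, a forward probe fell by 1.47 ± 0.305 (adjusted p = 1.05e-05, limma) and the reverse probe rose by 1.05 ± 0.497 (adjusted p = 0.000638, limma). The forward probe had tumor levels of 9.32, 9.93 and 10.29 (lowest, median, highest) and control levels of 11.21, 11.29 and 11.47, with no overlap. Its other forward probes stood at -0.44 and 0.13, and the former was called lower with the processed signals, at -1.8. The reverse probe had tumor levels of 7.11, 8.44 and 9.03 and control levels of 6.9, 7.2 and 7.81, which overlap, and fell below the 2-fold limit without array 1 (0.96) or 7 (1.0 when rounded). Its profile was closest to Trim30d, of a family of TRIM genes also on chromosome 7 (r = 0.983, ratio 1.55).

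Of the 2032 ranges with a tested probe, 45 held a probe called higher and 64 one called lower, 108 in all. Among 86 called ranges with at least 2 tested probes, 47 had a single called probe and 13 had all of them called. In 19 ranges at least 3 probes were called, 10 higher and 9 lower, and merging ranges within 10000 bases of each other leaves 16 places on the genome, 8 in each direction. Counted over the 1344 merged places with a tested probe, 32 held a probe called higher and 61 one called lower. Over all tested probes of the array 6.63% were called higher and 4.66% lower. That is a share of probes, and no count by place was made for other probes, so the counts by place are a description.

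**Figure D3:**
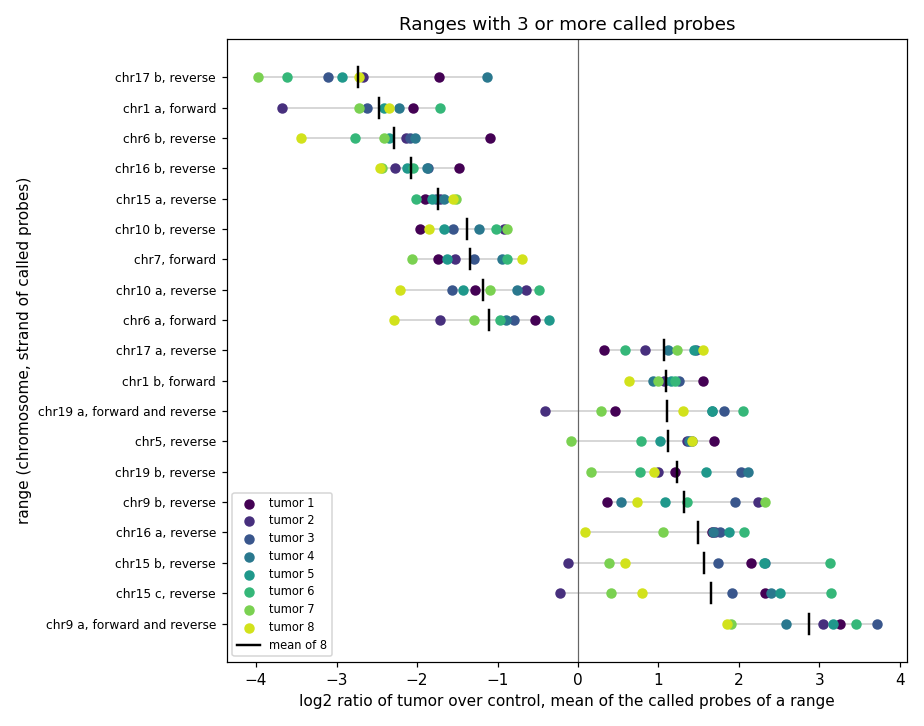
Mean log2 ratio of the called probes in each of 8 tumors (points, horizontal axis) for the 19 ranges with at least 3 called probes (rows, named by chromosome with a letter where a chromosome has several). The falls on chromosome 1 and chromosome 17 are below -1 in all 8 tumors, while the rises on chromosome 15 run from -0.22 to 3.14 over the tumors.

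The largest rise of a region probe was on chromosome 9. In chr9:78107225-78118850 a forward probe had tumor levels of 14.58, 15.53 and 16.51 and control levels of 10.03, 11.05 and 12.63 (lowest, median, highest). All 8 tumors lay above all controls, and tumors 7 and 8 had the smallest ratios, 3.03 and 2.92. The highest control was that of array 8, and the ratio without that array was 4.66. Its mean ratio was 4.45 ± 0.963, a 21.8-fold difference (adjusted p = 6.71e-06, limma). The second forward probe gave 4.29 ± 1.20 on the 7 arrays where its spot was not an outlier. Of 5 tested reverse probes 2 were called, at 1.75 and 1.22, and the other three lay between 0.83 and 0.84. With the processed signals those 2 gave 3.75 and 2.1.

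The overlapping range chr9:78104935-78116974 had 1 tested forward probe. Its tumor levels were 14.56, 15.39 and 16.34 and its control levels 12, 12.81 and 13.75, with no overlap. The ratio was 2.68 ± 0.764 (adjusted p = 3.04e-05, limma), lowest in tumor 7 at 1.45. The profiles of the forward probes measured on all arrays in these ranges were closest to Gsta1, which encodes an alpha class glutathione S-transferase that conjugates glutathione to electrophiles (r = 0.999 and 0.995). The probe of Gsta1 itself stood at 4.13, that of Gsta2 at 2.64 and those of Gm10639 at 4.14 and 1.61.

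For the gene profiles, likeness is Pearson's r over 16 levels, the tumor and control channel of each array, so that a shared difference between the groups alone gives a high r. This comparison with genes was chosen after the ratios were seen and is a description. It was made for 173 called probes against 18645 probes of 14304 genes, and the median of the highest r was 0.974. For 37 of the 173 (21.4%), in 22 stranded regions, the most similar gene lay on the same chromosome, where on average 5.03% of gene probes lie. Of the 62 with an r of at least 0.98, 21 were on the chromosome of their gene, and of the other 111, 16 were.

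**Figure D4:**
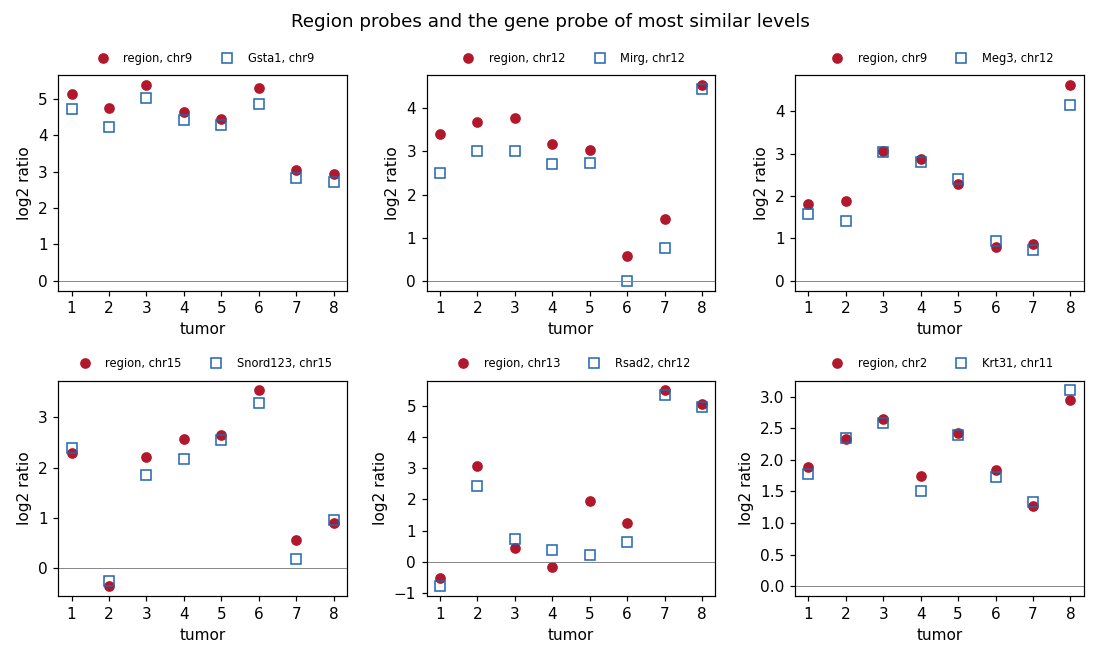
Log2 ratio in each of tumors 1 to 8 (horizontal axis) for 6 region probes and the gene probe most similar to each. The chromosome 9 probe and Gsta1 are lowest in tumors 7 and 8, and the chromosome 13 probe and Rsad2 are highest there.

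A stretch of chromosome 12 held the largest group of rising probes. Between chr12:110842154 and 110988678, a length of 146525 bases, 10 forward ranges that overlap it carried 38 probes, of which 27 were tested and 10, in 5 ranges, were called higher. None was called lower, 25 of the 27 lay above 0, and their median was 0.74. Over all tested probes of the array 6.63% were called higher. The stretch runs from the start of its first called range to the end of its last. These counts and the contrast between strands therefore partly follow from how it was drawn, and are a description. On the reverse strand 4 ranges had 8 tested probes, of which 7 lay above 0, with a median of 0.49. Limma called 0 of them. Of the 8, 3 had an unadjusted p under 0.05 and the same number an adjusted p under 0.05.

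In chr12:110894095-110899517 the top probe had tumor levels of 8.54, 10.55 and 11.66 and control levels of 6.82, 7.37 and 8.65. The groups overlap only in the highest control and the lowest tumor. Its ratio was 2.95 ± 1.30, a 7.71-fold difference (adjusted p = 0.000334, limma), and the other probe of the range gave 2.71. Over the tumors the ratios were 3.41, 3.67, 3.77, 3.18, 3.03, 0.58, 1.43 and 4.53 in the order of tumors 1 to 8. Tumor 6 was lowest and tumor 8 highest, as for the mean of all 10 called probes, which was 0.33 in tumor 6, 0.72 in tumor 7 and 3.41 in tumor 8. The profile was closest to Mirg, a noncoding RNA that holds microRNAs of the imprinted Dlk1-Dio3 cluster (r = 0.967, ratio 2.40).

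The first called range of the stretch, chr12:110842154-110883594, had tumor levels of 7.97, 9.42 and 11.08 and control levels of 6.62, 6.86 and 7.84 for its higher probe. No tumor fell among the controls. The ratio was 2.65 ± 1.29 (adjusted p = 0.000576, limma), and the second probe gave 1.40. The higher probe was most like Meg3, the maternally expressed noncoding RNA of the same cluster (r = 0.972), whose 3 probes had ratios of 2.13, 2.35 and 2.52. The remaining called probes stood at 1.88 and 1.18 in chr12:110909258-110913909, at 1.62 and 1.89 in chr12:110944403-110988678, and at 1.70 and 1.75 in chr12:110973190-110987668. With the processed signals those at 1.88, 1.40, 1.18 and 1.62 gave 3.91, 3.66, 2.33 and 2.44.

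**Figure D5:**
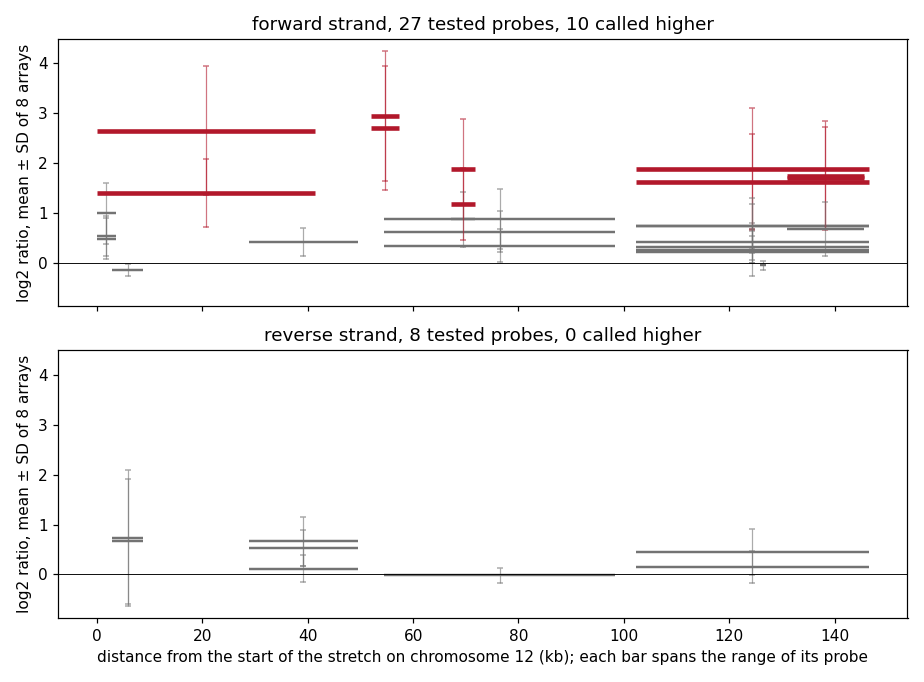
Mean log2 ratio ± SD of 8 arrays (vertical axis) for tested region probes of the chromosome 12 stretch by distance from its start in kilobases (horizontal axis), forward strand above and reverse strand below. Horizontal bars span the range a probe is named for, since its own place within it is not used. The 10 called probes, in red, are all on the forward strand.

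The reverse strand of this stretch held 2 profiles over tumors. The 3 probes that passed the adjusted p, at 0.66 and 0.53 in chr12:110870903-110891628 and 0.45 in chr12:110944403-110988678, stayed below the fold. The first had ratios of 0.41, 0.41, 1.34, 0.97, 0.67, 0.12, 0.08 and 1.28 in tumors 1 to 8, low in tumors 6 and 7 and high in tumors 3, 4 and 8 as on the forward strand. Both tested reverse probes of chr12:110845020-110850870 were high in tumor 2 (3.31 and 3.23) and tumor 8 (1.88 and 2.56) and between -0.35 and 0.27 in the others. Their means, 0.66 ± 1.26 and 0.73 ± 1.36, did not pass the test (adjusted p = 0.177 and 0.173, limma). The same range on the forward strand had 1 tested probe, at -0.15. A reverse probe of chr12:110738120-110769295, which lies before the stretch and was picked after its values were seen, was called lower at -1.26 ± 0.467, and at -3.85 with the processed signals.

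A single probe elsewhere followed Meg3. In chr9:68349343-68411643, forward, tumor levels were 7.48, 8.73 and 11.19 and control levels 6.3, 6.61 and 7.03, with no overlap. The ratio was 2.27 ± 1.26 (adjusted p = 0.00115, limma), highest in tumor 8 (4.61) and lowest in tumors 6 and 7 (0.79 and 0.86). The r with the Meg3 probe at 2.13 was 0.993, although Meg3 lies on chromosome 12. The other tested probes of the range stood at -0.03 and 0.29, and the processed signals gave 3.46 for the called probe.

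Other large rises came from ranges with 1 called probe. The reverse probe of chr8:67550064-67560987 had tumor levels of 6.91, 8.82 and 9.55 and stayed at background in all 8 controls. No control reached a tumor, and tumors 4 and 8 were the lowest, at ratios of 0.64 and 0.90. It was at least 4.99-fold higher in tumor, by the bound described at the end of this paragraph (measured ratio 2.33, adjusted p = 0.000372, limma). It was closest to Slc7a11, the cystine and glutamate exchanger that feeds glutathione synthesis, a gene of chromosome 3 (r = 0.968), whose probe was also at background in all 8 controls (measured ratio 3.12). The processed signals gave a measured ratio of 5.71 for the region probe. For the bound, each array's control level was the larger of the probe's own and the lowest of any probe well above background. Such a bound can equal the measured fold and does not come from a measured detection limit. The other folds given as at least use the same rule, with the channels exchanged for falls.

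Overlapping ranges at this place were looked at after their values were seen. The reverse probe of chr8:67552315-67561235 rose by 1.6 ± 0.26 (adjusted p = 3.59e-06, limma), with ratios from 1.07 to 1.9. Its levels moved together in both channels of an array, from 8.3 to 11.79 over the tumors and from 7.23 to 10.17 over the controls. Array 4 was lowest in both and array 8 next. In chr8:67542714-67561694, forward, 1 of 5 tested probes was called, at 1.30 and at least 2.42-fold higher, and another stood at -0.74.

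The forward probe of chr2:77715502-77719430 had tumor levels of 10.15, 11.05 and 12.56 and control levels of 8.76, 9.02 and 9.61. The groups do not overlap, and all 8 ratios lay between 1.27 and 2.95. The mean was 2.13 ± 0.546, a 4.39-fold difference (adjusted p = 1.92e-05, limma). It was closest to Krt31, a hair keratin gene of chromosome 11 (r = 0.992, ratio 2.09). The forward probe of chr7:13533925-13544525 rose by 1.83 ± 0.645 (adjusted p = 0.000106, limma) without overlap, from tumor levels of 7.18, 8.32 and 8.71 and control levels of 6.11, 6.25 and 6.43, and gave 4.36 with the processed signals. Only 1 control was above background there.

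On chromosome 15, 8 reverse probes of the nearly identical ranges chr15:32167516-32174417 and chr15:32167516-32174427 were called higher, from 1.29 to 1.79. The probe at 1.79 ± 1.30 (adjusted p = 0.00477, limma) had tumor levels of 8.25, 10.45 and 11.37 and control levels of 7.83, 8.32 and 8.62. The groups overlap in tumor 2, which stood at -0.37 while tumor 6 stood at 3.54. All 8 probes were closest to Snord123, a small nucleolar RNA gene of chromosome 15, a class that guides chemical modification of other RNAs (r from 0.971 to 0.995, ratio 1.64). Snord123 was also below 0 in tumor 2 (-0.26) and highest in tumor 6 (3.28).

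The other ranges with at least 3 probes called higher had smaller ratios. On the reverse strand of chr16:4585697-4594022, 3 of 5 tested probes were called, at 1.78, 1.67 and 1.01, with tumor 8 lowest for each (0.15, 0.10 and 0.01). The last was at background in all controls and at least 2.02-fold higher. In chr9:96632664-96653249, reverse, all 3 tested probes were called, from 1.03 to 1.5, and the probe at 1.5 was at least 2.82-fold higher since no control was above background. In chr17:15100982-15115630, reverse, the 3 probes stood between 1.01 and 1.13 and were most like Gm3448, a predicted gene of the same chromosome (1.62 and 1.86). In chr5:22890322-22939119, reverse, they stood between 1.01 and 1.29, with tumor 7 near 0. The forward probes of chr1:82895400-82897576 rose by 1.02, 1.04 and 1.24, and of these the first had tumor levels of 8.41, 8.76 and 9.39 against control levels of 7.61, 7.78 and 7.93.

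These smaller calls stand close to the 2-fold limit. Leaving out 1 array took at least 1 probe of each of those 5 ranges below it: arrays 2, 3, 5 or 6 for the probe at 1.01 on chromosome 16 (0.96 to 0.99), arrays 2, 3 or 7 for the one at 1.03 on chromosome 9 (0.91 to 0.96), and arrays 3, 5, 7 or 8 for the one at 1.01 on chromosome 17 (0.93 to 1.0 when rounded) and array 5 for the one at 1.06 (0.99). On chromosome 5 it was arrays 1, 2, 3, 4 or 8 for the probe at 1.01 (0.92 to 0.98) and array 1 for that at 1.07 (0.98), and on chromosome 1 arrays 1 or 6 for that at 1.02 (0.95 and 0.98) and array 1 for that at 1.04 (0.99). The processed signals gave larger ratios on chromosomes 5, 9, 16 and 17, such as 2.93 for the probe at 1.78 on chromosome 16 and 2.69 for that at 1.44 on chromosome 9.

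The largest fall was the only tested probe of chr19:36699712-36763966, on the reverse strand. Tumor levels were 6.28, 6.71 and 7.69 and control levels 8.65, 9.92 and 11.53. No tumor reached a control, and all 8 ratios lay between -3.84 and -2.37. It fell by 3.18 ± 0.522 on the log2 scale, a 9.06-fold difference (adjusted p = 1.87e-06, limma). The highest control was that of array 8, whose muscle genes were also high (15.99), and without array 8 the ratio was -3.08. Its closest gene profile was Gm5617 (chromosome 9, r = 0.972).

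On chromosome 17, 5 reverse probes of a short range and a longer one around it fell together. In chr17:32044823-32045974, 1152 bases long, all 3 probes were called, at -3.03, -2.60 and -2.57. The first had tumor levels of 6.84, 7.44 and 8.47 and control levels of 9.66, 10.64 and 11.59, with no overlap (SD 1.05, adjusted p = 8.57e-05, limma). The fall was largest in tumor 7 (-4.48) and smallest in tumor 4 (-1.27). In chr17:32035750-32056000 both tested reverse probes were called, at -2.90 and -2.65, and the forward probe stood at -0.10. The closest gene profiles were Nr1h5, a nuclear receptor gene of chromosome 3, and Erg28, of chromosome 12, with r of at most 0.965.

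All 3 tested probes of chr1:71939741-71947891, forward, fell, by 2.80, 2.78 and 1.83 on the log2 scale. The first had tumor levels of 7.57, 8.09 and 9.3 and control levels of 10.32, 10.91 and 11.66. The groups do not overlap, with tumor 2 the lowest ratio (-3.95) and tumor 6 the highest (-2.03). Its SD was 0.579 (adjusted p = 6.1e-06, limma). The first and second were closest to Urah, which encodes an enzyme of urate breakdown on chromosome 7 (r = 0.976 and 0.983, ratio -1.08), and the third to Gm8883, a noncoding RNA gene of chromosome 1 (r = 0.981, ratio -1.32). The third gave -2.78 with the processed signals.

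The range chr6:129151512-129208737 held both called and uncalled probes of one strand. Of 9 tested reverse probes 4 were called, from -2.45 to -1.92, and the other five lay between -0.85 and 0.01. The probe at -2.45 ± 0.646 had tumor levels of 8.36, 9.1 and 9.81 and control levels of 11.0, 11.68 and 11.98 (adjusted p = 2.13e-05, limma). No overlap was seen, and the fall was largest in tumor 8 (-3.62) and smallest in tumor 1 (-1.35). The closest profiles were Cyp2c23, a cytochrome P450 that oxidises arachidonic acid (chromosome 19, ratio -3.83), for 3 of the 4 probes and Pigr, the carrier of secreted antibodies into bile (chromosome 1, ratio -4.33), for the other one. The 2 forward probes stood at 0.73 and -0.54.

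On chromosome 16 the 3 reverse probes of chr16:86770170-86874921, a range of 104752 bases, fell by 2.48, 2.29 and 1.45. The first had tumor levels of 5.99, 7.16 and 7.66 and control levels of 8.69, 9.68 and 10.23, and it fell most in tumor 8 (-3.01) with no overlap of the groups (SD 0.427, adjusted p = 2.82e-06, limma). It was closest to Acsm5, a medium-chain acyl-CoA synthetase gene of chromosome 7 (r = 0.984, ratio -2.11). On chromosome 15 the 3 reverse probes of chr15:8463685-8494960 fell by 2.11, 1.87 and 1.23, with SDs of 0.291, 0.187 and 0.197, and were even over the tumors. The first had tumor levels of 6.28, 6.62 and 7.34 against 8.44, 8.82 and 9.41 in control. The dimmest of them was above background in 1 tumor. With the processed signals the probes of these 2 ranges gave ratios as low as -3.87 and -3.73.

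Neighbouring reverse ranges of chromosome 10 fell less. All 3 probes of chr10:39666719-39679959 were called, from -1.63 to -1.16, and 4 of 5 in the overlapping chr10:39659425-39674200, from -1.36 to -1.04, with its 2 forward probes at -0.38 and -0.09. The probe at -1.63 ± 0.446 had tumor levels of 8.45, 9.21 and 9.7 and control levels of 10.34, 10.73 and 11.1, with no overlap. In chr7:4827340-4863315, 5 of 6 forward probes were called, from -1.67 to -1.15, and none of 5 reverse ones, from -0.37 to -0.19. In chr6:40693617-40720167, 4 of 5 forward probes were called, from -1.13 to -1.05, with the largest fall in tumor 8 for each. Without array 8, 3 of those 4 went below the fold (-0.88, -0.91 and -0.94), and without array 2 one of them did (-0.96). On chromosome 10 the calls at -1.05 and -1.04 were lost without array 8 (-0.93 and -0.87), without array 5 for the former (-0.97) and without array 3 for the latter (-0.98), and the processed signals gave -1.76 and -1.69.

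One falling profile was shared by probes of 6 chromosomes. The ratios of 7 called probes had an r of at least 0.95 over the 8 tumors with the reverse probe of chr4:135896689-135918414, counting that probe, a set put together after the values were seen. The spread of these ratios lay in the control channel, with SDs of 0.52 to 0.884 over the controls and 0.168 to 0.347 over the tumors. The control level of each of the 7 was highest on array 6 and lowest on array 7, with array 8 next. The chromosome 4 probe had control levels of 8.65, 8.69, 8.19, 8.6, 8.06, 9.51, 6.97 and 7.63 on arrays 1 to 8, stayed at background in every tumor and was at least 4.13-fold lower in tumor. The largest fall among the set was in chr7:50509139-50526856, reverse, with tumor levels of 6.22, 6.47 and 6.9 and control levels of 7.69, 9.27 and 10.36. No overlap was seen, and the ratio was -2.59 ± 1.00 (adjusted p = 0.000163, limma), while the other tested probes there stood at -0.70 and -0.02. With the processed signals it was -4.17.

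In chr13:108548345-108679004 and chr2:33496712-33501183 the probe was also at background in every tumor, and at least 3.8-fold and 2.54-fold lower. The remaining 3 of the set were chr10:87541696-87547421 (-2.18), chr15:5969454-5994540 (-1.81) and chr4:94719930-94825776 (-1.13), with 3, 1 and 6 tumors above background. The last fell below the 2-fold limit without array 6 (-1.0 when rounded). With the processed signals these 3 gave -3.9, -4.53 and -2.27. For 6 of the 7 the most similar gene probe was one and the same probe of Foxl2, a forkhead factor of the ovary, on chromosome 9 (r from 0.979 to 0.988, ratio -1.70). Another Foxl2 probe stood at -0.53.

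Chromosome 19 had the highest share of called region probes, 10 of 118 tested (8.47%), 8 of them higher. This share was below the 11.3% called over all tested probes of the array. Most of the 8 lay in overlapping ranges between chr19:5771425 and 5848475. The reverse range chr19:5801802-5802597, 796 bases long, had bright probes called at 1.40, 1.27 and 1.01. The first had tumor levels of 14.62, 14.88 and 15.31 and control levels of 12.93, 13.61 and 14.17, with no overlap, a smallest ratio in tumor 7 (0.45) and an SD of 0.621 (adjusted p = 0.000402, limma). The last lost its call without array 3, 4 or 5 (0.90, 0.90 and 0.96). A reverse probe of chr19:5771425-5848475, a range around it, rose by 1.20 ± 0.59 (adjusted p = 0.000717, limma) and was most like Malat1, an abundant nuclear noncoding RNA gene of chromosome 19 (r = 0.988, ratio 1.31). Both had their highest ratio in tumor 8 (2.37 and 3.28).

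The forward probes of chr19:5771425-5848475 were less even. Of 10 tested 2 were called, at 1.08 ± 1.29 and 1.03 ± 1.12, with ratios from -1.3 to 2.5 and from -0.93 to 2.45. Tumor 2 was lowest and tumor 6 highest for both, and the groups overlap. Adjusted p-values were 0.0455 and 0.0313 (limma), and the calls were lost without array 3, 4, 5 or 6 for each, and with no filter on dim probes. The former also lost it without array 1 or 8, with slide row as a block (adjusted p = 0.0552, limma) and with median centring (0.0773), and the latter with the processed signals (0.88, adjusted p = 0.0996).

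In chr19:5834117-5835940, reverse, the 3 probes had no mean difference (0.02, 0.28 and -0.02) but some of the largest SDs of all region probes (1.57, 1.47 and 1.48). The first had ratios of 1.56, 2.08 and 1.72 on arrays 3, 4 and 5 and -2.20 on array 6. The spread lay in the controls, with an SD of 1.85 against 0.718 in the tumors, and the controls of arrays 3, 4 and 5 stood at 6.82, 7.14 and 6.78 against 9.6 to 11.46 on the others. Its control level was highest on array 8, at 11.46, and without array 8 the ratio was 0.19. Neat1, the scaffold RNA of nuclear paraspeckles on the same chromosome, had its highest ratios on arrays 3, 4 and 5 too (2.95, 2.89 and 3.67), where its controls were lowest (11.15, 10.85 and 10.33), but stood at 2.68 on array 6.

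The region probe with the largest SD was that of chr13:21856097-21859200, reverse. Its tumor levels were 11.83, 13.0 and 16.91 and its control levels 10.66, 11.61 and 13.5. The groups overlap, and tumors 7 and 8 stood apart at ratios of 5.49 and 5.07, with tumor 2 next at 3.08. The mean was 2.07 ± 2.29 (adjusted p = 0.0323, limma). The call was lost without array 2, 5, 7 or 8 (adjusted p from 0.0606 to 0.0714, limma) and with no filter on dim probes (0.0649), and without arrays 7 and 8 the ratio was 1.01 (adjusted p = 0.0968, limma). The profile was closest to Rsad2, an interferon-induced antiviral gene of chromosome 12 (r = 0.958), which stood at 5.35 and 4.96 in tumors 7 and 8 and at 2.43 in tumor 2.

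The other probes of large SD did not pass the test with all arrays. The forward probe of chr6:35201798-35217831 had a ratio of -0.21 ± 1.81, from -2.44 in tumor 6 to 2.70 in tumor 1. That of chr5:15146475-15170100, forward, had 0.73 ± 1.52, from -1.38 in tumor 2 to 2.63 in tumor 6. The reverse probe of chr8:41934312-41945487 stood at -1.04 ± 1.57, from -2.79 in tumor 2 to 1.82 in tumor 6 (adjusted p = 0.0987, limma), and was called lower without array 6, at -1.44 (adjusted p = 0.0138, limma). In all 3 the levels of tumors and controls overlap.

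Single arrays contributed unequally, where each ratio holds the control of its array as well as the tumor. Among the probes called higher and measured on all 8 arrays the smallest ratio was on array 7 for 21 and on array 8 for 13. The largest was on array 8 for 18 and on array 6 for 15. Among the 95 called lower the smallest fall was on array 8 for 31 and on array 7 for 19. The largest was on array 6 for 19, on array 8 for 16 and on array 7 for 15. All 7 probes of the shared falling profile fell most on array 6, where their control levels were highest. By chromosome the direction varied: on chromosome 10, 12 probes were lower and 0 higher (7.1% of its tested region probes called). On chromosome 6, 15 were lower and 2 higher (5.28%), and on chromosome 12, 13 higher and 5 lower (7.29%). Over all tested probes of the array 11.3% were called. Probes of one place repeat in these counts: 10 of the 13 on chromosome 12 lie in the stretch above. On chromosome 10, 3 and 4 of the 12 lie in overlapping ranges. Of 144 tested probes of the X chromosome limma called 0, with 46 at an unadjusted p under 0.05, 38 at an adjusted p under 0.05 and ratios from -0.96 to 0.48, below the fold. On chromosome 10, 34 of the probes above 0 had an unadjusted p under 0.05 and 25 an adjusted one, with ratios up to 0.87.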

How the data were processed

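Each array was read from the authors' deposited scanner table (Agilent Feature Extraction 10.9 per the submitters' processing notes, 10.9.1.1 per the file headers), whose median spot and background intensities were used in red and green. RNA was purified with miRVana and RNeasy kits, per the labels' protocols. Background was corrected with normexp (offset 50), and ratios were normalized by loess within arrays in limma 3.58.1 (R 4.3.3), with control and outlier spots given weight 0. Levels were taken after Aquantile normalization. No spot was saturated, and 2 tested region probes lacked an array left out as an outlier. Ratios were tested against 0 with lmFit and eBayes over all 29290 probes that passed the detection rule, with Benjamini-Hochberg adjustment. Scanner-software processed intensities, other filters, normalizations and each array left out were alternatives.

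Members and lists were chosen with earlier results of these data known. Probes named were the 10 largest rises and the 10 largest falls with one sign on all arrays, called probes of ranges with at least 3, the 5 largest SDs and the strand called both ways. On simulated ratios for 29275 probes, a shift of 0.5 was called for 0 of 67 region probes, 1.5 for 67 of 67 and 3 for 66 of 66, with 1 false call. The 2-fold limit largely fixes this outcome, and the simulated noise was independent between probes. It checks the calling steps and does not measure false calls in these data.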

Additional observations from a re-analysis of the deposited data

Results flagged for a closer look

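In chr16:4585697-4594022, reverse, the log2 ratio of tumor 8 for the probe called at 1.01 was 0.01, far from the other seven tumors. Its gap to the nearest tumor was 0.557 of the whole range, above Dixon's critical value of 0.526. It was 1 of 93 probes looked at in this way, and chance gives about 1 in 20 such groups.

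A further 13 probes had a chromosome range in their name but no strand and were in no comparison above. Of these 5 were tested, all for chr17:12941161-12944859, with log2 ratios of 1.08, 0.82, 0.82, 0.63 and 0.53. All 5 lay above 0 on all 8 arrays, and the one at 1.08 ± 0.474 (adjusted p = 0.000436, limma) was called.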

How the results depend on the processing

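No called region probe changed sign under any alternative. With a normexp offset of 16, 140 probes were called higher and 143 lower, in 85 and 97 ranges. With the processed signals 318 were higher and 704 lower, in 175 and 462 ranges, and the median of all tested probes moved to -0.11. Shares called over all tested probes were not counted under these settings, so the changes cannot be assigned to region probes. Leaving out each array in turn gave 71 to 87 probes higher and 90 to 115 lower, in 44 to 54 and 60 to 82 ranges. All other alternatives kept these counts within 1.5 times. Median centring gave 50.6% of the calls as higher. Leaving out arrays 7 and 8 together (95 higher, 131 lower) and averaging arrays 1 and 2 (75 and 94) were chosen after seeing the data.

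Of all 174 called probes 41 lost their call under at least 1 alternative. Among the 81 that the naming rule chose 19 did, and the processed signals moved 27 by more than 1.5 times. Of 15 more called probes given above or in their ranges, 1 lost its call. The test is paired by array, since each ratio sets a tumor against the control on its own array. A block for slide row, set from the array numbers, was fitted as an alternative and gave 78 probes higher and 96 lower. No other block was fitted. The alternatives on the distance to a neighbouring gene (a nearer and a farther limit, and the same strand only) were not run, since gene positions on mm9 were not used here. The number of arrays limits the precision.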
